A study of Mus musculus with 9 samples.

Results

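Liver cells take up fatty acids from the blood, bind them in the cytosol and release them from circulating lipoproteins through lipases, and 10 genes of these 3 steps were examined among the 27179 genes counted. They were chosen by name. The 4 transporters were Cd36, Slc27a2, Slc27a4 and Slc27a5, the 4 binding proteins were Fabp1, Fabp2, Fabp4 and Fabp5, and the 2 lipases of the blood side were Lpl and Lipc. All 10 passed the filter on low counts and were among the 16860 genes tested. RNA came from frozen liver sections of female mice lacking Apoe, the apolipoprotein that clears lipoprotein remnants, which from 8 weeks of age received a high-fat diet (HFD) of the Western type for 12 weeks. The Apoe-/- group had 5 libraries. The Mif-2-/- Apoe-/- group had 4 libraries and also lacked Mif-2 in every cell of the body, since the deletion was not restricted to liver or to a cell type. Mif-2 is the gene Ddt, which encodes the cytokine D-dopachrome tautomerase. Each library combined lysates of 3 to 4 sections, so hepatocytes and all other liver cells were read together. The labels do not say which library came from which mouse, and the study names fewer Apoe-/- mice for this experiment than there are Apoe-/- libraries. Some of these libraries may therefore share a mouse, and n counts libraries, so p-values measure the spread between libraries.

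Fatty acids enter hepatocytes by diffusion and with the help of membrane proteins. CD36 is a scavenger receptor that binds long-chain fatty acids, and the SLC27 (fatty acid transport) proteins couple uptake to acyl-CoA formation. In the cytosol, fatty acid binding proteins carry the insoluble acids to mitochondria, peroxisomes and the endoplasmic reticulum, and liver is known for its high level of the liver form, encoded by Fabp1. Lipoprotein lipase (Lpl) and hepatic lipase (Lipc) act on triglycerides of lipoproteins at the vessel wall, Lpl mainly in muscle, fat and macrophages and Lipc in liver.

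Total counts were between 2318148 and 10764182 per library. Ddt was at 233 to 972 CPM (TMM-normalised counts per 1000000 counts of the tested genes) in the Apoe-/- libraries and at 2.51 to 5.49 CPM in the Mif-2-/- Apoe-/- libraries, so every library matched its label. Some of its exon bases are also annotated to Gm20441. Apoe-/- replicate 5 and Mif-2-/- Apoe-/- replicate 3 had the lowest median Spearman correlation with the other libraries, at 0.81 and 0.78, against 0.83 to 0.87 for the rest. Of 7 marker lists for liver cell types, none had a gene at 0 in all libraries. The 10 hepatocyte markers held 8.97% to 10.6% of all counts in Apoe-/- replicates 1 to 4 and 10.9% in Mif-2-/- Apoe-/- replicate 2. They held 5.46% in Apoe-/- replicate 5 and 4.21% to 5.14% in Mif-2-/- Apoe-/- replicates 1, 3 and 4. Fewer hepatocytes and less of this RNA per hepatocyte cannot be told apart in such bulk samples. The libraries with the lower share also had the most genes with a count, at 16557 to 18631, against 14220 to 16405 in the rest. The part of RNA or library quality in this share was not tested. Of these 10 markers edgeR tested 6. At unadjusted p under 0.05, 2 were higher and 1 lower in Apoe-/-, beside 6.52% and 8.99% of all genes tested, and 0 passed after adjustment. The markers not tested, Alb, Ttr, Trf and Hpx, were among the 10 most abundant genes, which were left out of the fit. The summed Kupffer cell and macrophage markers were at 1224 to 2000 per 1000000 counts in Apoe-/- and 1464 to 1570 in Mif-2-/- Apoe-/- libraries, and the adipocyte markers at 4.11 to 29.5 and 11.0 to 60.9.

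RefSeq promoter windows of GRCm38.p6 matched 6 of the 10 genes and not Fabp4, Fabp5, Slc27a5 or Lpl. The bases before the first annotated base are shown for Fabp1, the most abundant of the genes, and for Fabp2, the gene with the largest difference between genotypes, to set their upstream sequences side by side. Fabp1 is shown at chr6:71199629-71199826 and Fabp2 at chr3:122894822-122895071, both on the plus strand. Capitals mark a direct repeat of the nuclear receptor half-site with 1 base between the copies (AGGNCANAGGNCA, searched on both strands).

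Fabp1: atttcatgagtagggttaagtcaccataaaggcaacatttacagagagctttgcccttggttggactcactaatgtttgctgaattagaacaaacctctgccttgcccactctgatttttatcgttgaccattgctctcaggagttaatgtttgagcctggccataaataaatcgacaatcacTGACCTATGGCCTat

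Fabp2: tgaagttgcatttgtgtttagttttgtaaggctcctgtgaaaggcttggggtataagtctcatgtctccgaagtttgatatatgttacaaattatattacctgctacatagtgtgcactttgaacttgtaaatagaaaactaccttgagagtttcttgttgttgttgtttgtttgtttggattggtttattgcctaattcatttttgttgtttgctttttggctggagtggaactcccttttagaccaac

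The search covered the 250 bases before each RefSeq start, of which the Fabp1 line shows the first 198. Of 32851 such windows, 0.338% held this repeat, and among the windows of the 10 genes Fabp1 alone held it. It lies at -67 to -55 from the RefSeq start, on the minus strand. The single half-site AGGTCA, which such a repeat can contain, was in 14.0% of all windows and in those of Cd36, Fabp1, Lipc and Slc27a2. The Fabp2 window held none of the motifs searched, which also included TATAAA (12.4% of windows) and GGGCGG (32.7% of windows), and its GC content was 35.6%. A match describes letters and was not tested as a site.

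Across both genotypes the genes spanned a wide range of levels when CPM was divided by the length of the longest coding transcript. Fabp1 had the highest level, at 20340 CPM per kilobase over the 9 libraries, and Cd36 the lowest, at 1.01 CPM per kilobase. The order between them was Slc27a5, Slc27a2, Lipc, Fabp2, Fabp4, Slc27a4, Fabp5 and Lpl. Fabp1 was above Slc27a5 in 9 of 9 libraries, Lipc was above Fabp2 in 9, and Fabp5 above Lpl and Lpl above Cd36 in 9. Neighbours that were not separated were Slc27a5 and Slc27a2 (in this order in 5 of 9 libraries), Slc27a2 and Lipc (6 of 9), and Slc27a4 and Fabp5 (4 of 9). The highest level belonged to the cytosolic carrier of hepatocytes and the lowest to the scavenger receptor.

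**Figure D1:**
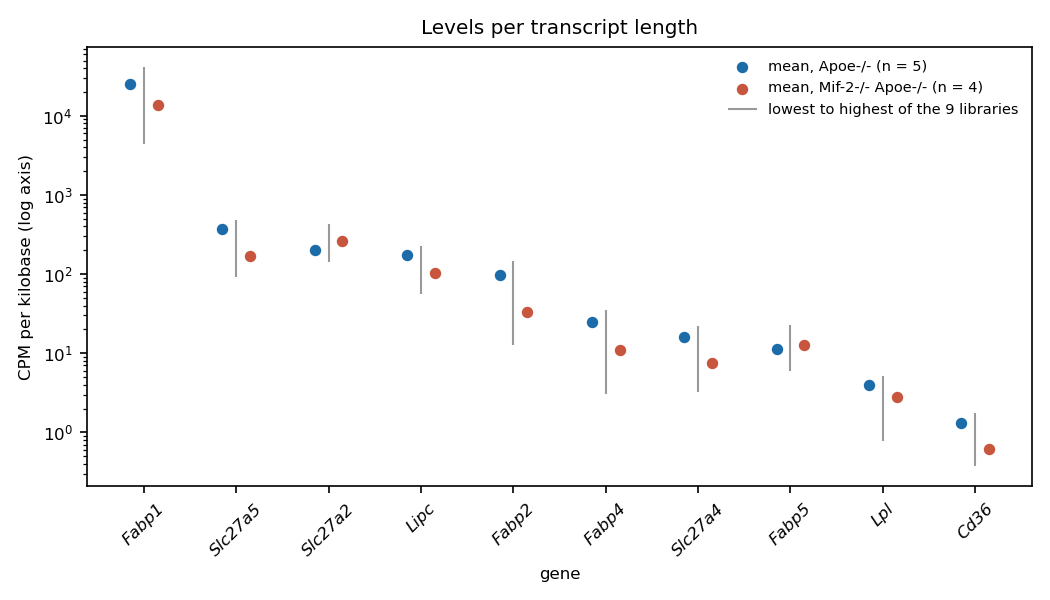
Levels of the 10 genes in CPM per kilobase of the longest coding transcript (y axis, log scale), in descending order. Points are genotype means (5 and 4 libraries) and lines run from the lowest to the highest library. Fabp1 stood at 20340 and Cd36 at 1.01 on average.

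Between genotypes, 8 of the 10 genes had a higher fitted level in Apoe-/- than in Mif-2-/- Apoe-/- livers, where 43.5% of all genes tested had a log2 fold change above 0. The median log2 fold change of the 10 was 0.98, beside -0.17 over all genes tested. After adjustment over all genes, 0 of the 10 passed 0.05 by edgeR, where 0.130% of all genes did. Without adjustment edgeR gave 3 of them, Slc27a4, Slc27a5 and Fabp2, a p-value under 0.05 with a higher level in Apoe-/-, where 6.52% of all genes did so. DESeq2 called Slc27a5 and Fabp2 higher in Apoe-/- after adjustment, where 2.52% of genes with an adjusted p-value were called in this direction. With libraries scaled to the hepatocyte marker sum, a scaling added after seeing the data, 6 of 10 were higher in Apoe-/-, and the median was 0.23 beside -0.99 over all genes. On that scale Cd36, Slc27a4, Slc27a5, Fabp1 and Fabp4 had log2 fold changes between 0.22 and 0.30. Without the 2 libraries of lowest correlation, also added after seeing the data, 8 of 10 were higher in Apoe-/-. The median was 0.94, beside -0.15 over all genes of that fit. There edgeR called 0 of the 10 after adjustment, where 39 of 15023 genes passed, and 3 without adjustment (Slc27a5, Fabp2 and Lipc). In these added settings the shares of all genes higher in Apoe-/- or past unadjusted p 0.05 were not counted.

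**Figure D2:**
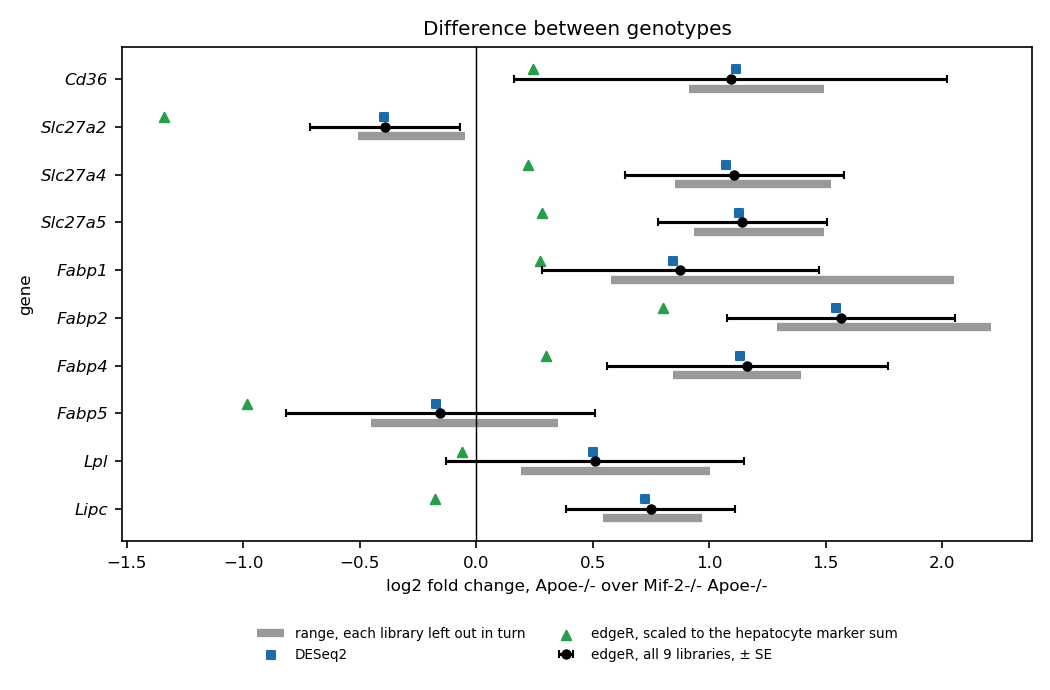
Log2 fold change, Apoe-/- over Mif-2-/- Apoe-/-, of each gene (x axis). Circles with bars are the edgeR fit with its SE, squares DESeq2, triangles the edgeR fit scaled to the hepatocyte marker sum, and grey bars the range over fits that omitted 1 library each. Fabp2 had the largest value, 1.56, and Slc27a2 lay at -0.39.

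Cd36 (chr5:17781690-17888801, minus strand) was scarce in these livers, with 5 to 45 reads per library. It was at 4.53, 6.03, 5.16, 4.43 and 2.32 CPM in Apoe-/- replicates 1 to 5 and at 2.44, 3.41, 1.26 and 1.37 CPM in Mif-2-/- Apoe-/- replicates 1 to 4. The groups overlapped through Apoe-/- replicate 5, and the other 4 Apoe-/- libraries were above every Mif-2-/- Apoe-/- library. Its fitted log2 difference was 1.09 ± 0.93 (SE), with an edgeR adjusted p of 0.611 (0.259 unadjusted) and a two-sided exact permutation p of 0.0476. At this depth the gene's fitted difference was little larger than its SE. The permutation p-values here and below are not adjusted, and the share of all genes under 0.05 by this test was not computed.

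The fitted log2 fold changes of the SLC27 genes did not share a sign. The negative one, of Slc27a2, was -0.39 ± 0.32 (SE), little larger than its SE. Slc27a5 (chr7:12988346-12998192, minus strand) encodes the liver-specific transport protein, which also activates bile acids. Its level was 721, 914, 1057, 1103 and 454 CPM in Apoe-/- replicates 1 to 5 and 354, 574, 208 and 405 CPM in Mif-2-/- Apoe-/- replicates 1 to 4. The groups overlapped through the same Apoe-/- replicate 5, which was below Mif-2-/- Apoe-/- replicate 2. The mean was 850 ± 267 CPM (SD, n = 5) when Mif-2 was present and 385 ± 151 CPM (SD, n = 4) when it was deleted, and the fitted log2 difference was 1.14 ± 0.36 (SE). DESeq2 gave an adjusted p of 0.0396 and edgeR 0.175, and the two-sided exact permutation p was 0.0317.

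Slc27a4 (chr2:29802634-29817522, plus strand) encodes a transport protein that is found in many tissues. It was at 59.3, 64.1, 40.4, 76.0 and 88.3 CPM in Apoe-/- and at 13.2, 14.8, 40.1 and 53.3 CPM in Mif-2-/- Apoe-/- libraries, in replicate order. Mif-2-/- Apoe-/- replicate 4 lay above Apoe-/- replicate 3, and replicate 3 lay just below it. On the log2 scale the difference was 1.11 ± 0.47 (SE), with an edgeR adjusted p of 0.280 and a two-sided exact permutation p of 0.0317. Apoe-/- replicate 5 was the highest library for Slc27a4, whereas for Slc27a5, Fabp1 and Fabp2 it was the lowest Apoe-/- library.

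Slc27a2 (chr2:126552407-126588243, plus strand), which encodes a very long-chain acyl-CoA synthetase and transporter of liver and kidney, was at 599, 635, 475, 587 and 613 CPM in Apoe-/- and at 1254, 411, 628 and 760 CPM in Mif-2-/- Apoe-/- libraries. The Apoe-/- libraries were close together, with a CV of 10.7%, and all of them lay within the Mif-2-/- Apoe-/- range. The log2 fold change was -0.39 ± 0.32 (SE), with an edgeR adjusted p of 0.598, and scaled to the hepatocyte marker sum it was -1.34 with an adjusted p of 0.211. Of its 100-base stretches of exon, 8.53% are shared with Gm26697 on the other strand, and the sources used here do not say that strand was used in counting.

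The number of Slc27a2 reads per Slc27a5 read does not depend on scaling. It was 0.83, 0.69, 0.45, 0.53 and 1.35 in Apoe-/- and 3.54, 0.72, 3.02 and 1.88 in Mif-2-/- Apoe-/- libraries. The ratio was highest in Mif-2-/- Apoe-/- replicates 1, 3 and 4, while replicate 2 lay among the Apoe-/- libraries. Those 3 libraries and Apoe-/- replicate 5, the next highest, are the ones with the lower share of hepatocyte markers, and the part of that share in the ratio was not tested.

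Among the binding proteins, Fabp2 had the largest difference of the 10 genes. Fabp2 (chr3:122895072-122899506, plus strand) encodes the intestinal form, which is best known from enterocytes. It was at 89.6, 89.4, 108, 143 and 40.1 CPM in Apoe-/- replicates 1 to 5 and at 24.0, 63.0, 12.3 and 29.0 CPM in Mif-2-/- Apoe-/- replicates 1 to 4. The groups overlapped only through Apoe-/- replicate 5 and Mif-2-/- Apoe-/- replicate 2. The Apoe-/- mean of 94.1 ± 37.2 CPM (SD, n = 5) was 2.93-fold above the Mif-2-/- Apoe-/- mean of 32.1 ± 21.8 CPM (SD, n = 4). The log2 fold change was 1.56 ± 0.49 (SE). DESeq2 gave an adjusted p of 0.0466, edgeR 0.174, and the two-sided exact permutation test p = 0.0317. Over the fits that left out 1 library each, the log2 fold change was 1.29 to 2.21 and the edgeR adjusted p 0.0458 to 0.374. The 1 fit under 0.05 was that without Mif-2-/- Apoe-/- replicate 2, where 262 genes of the whole table passed, against 22 with all libraries.

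Fabp1 (chr6:71199827-71205023, plus strand), the liver form, was at 13972, 12617, 16752, 22910 and 4246 CPM in Apoe-/- and at 4854, 19748, 2443 and 3689 CPM in Mif-2-/- Apoe-/- libraries. Apoe-/- replicate 5 was low and Mif-2-/- Apoe-/- replicate 2 was high, 4.07 times the next library of its group. The fitted log2 difference was 0.88 ± 0.60 (SE), with an edgeR adjusted p of 0.508 and a two-sided exact permutation p of 0.190. Without Mif-2-/- Apoe-/- replicate 2 it was 2.05, so this library moved the value more than any other single library did.

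**Figure D3:**
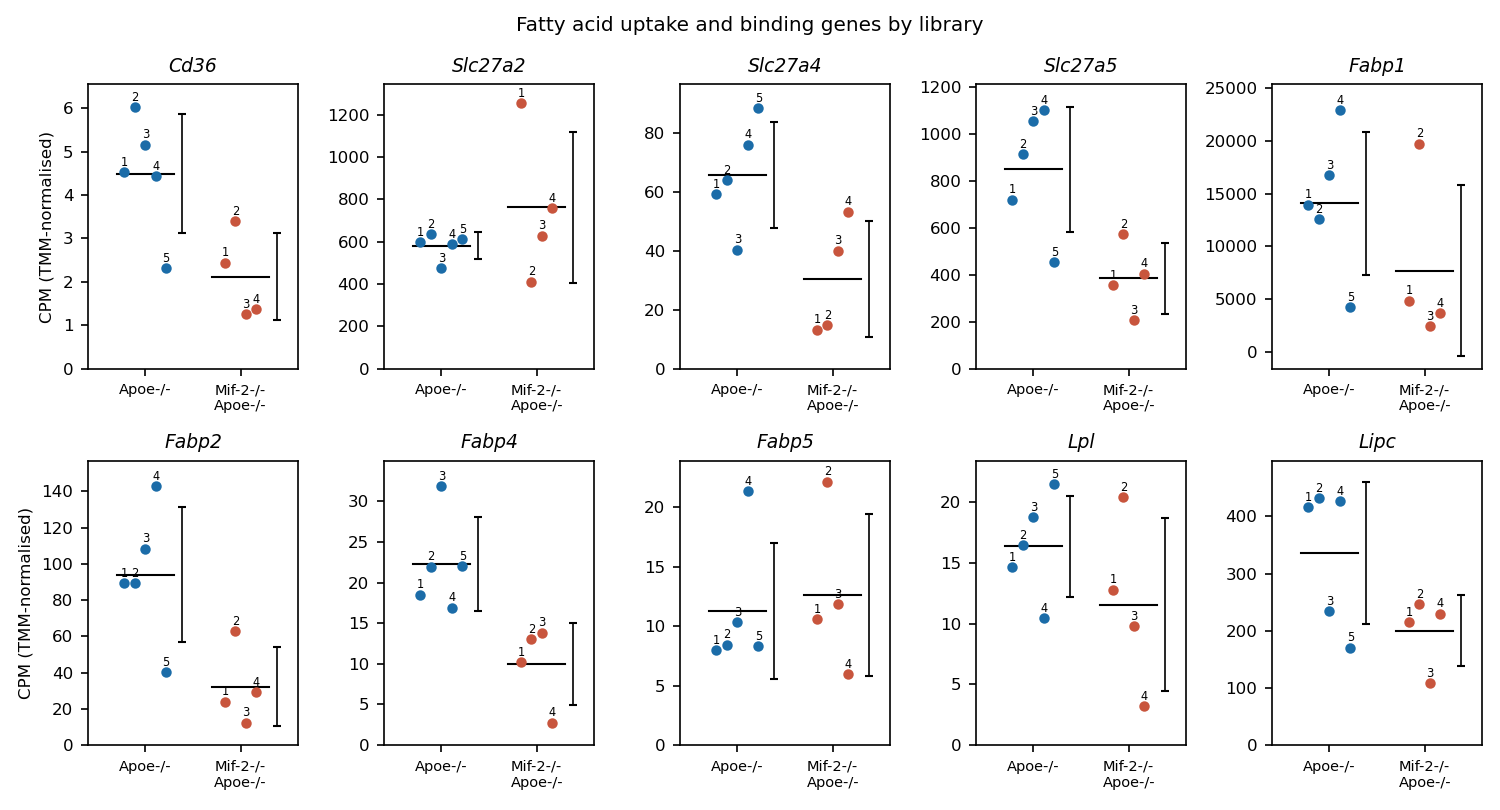
TMM-normalised CPM of each gene (y axes, linear from 0 or below where an SD bar reaches below 0) by genotype, 5 Apoe-/- and 4 Mif-2-/- Apoe-/- libraries. Points are libraries with their replicate number, lines are means and bars are SD. Fabp4 is the gene whose groups do not overlap, and Mif-2-/- Apoe-/- replicate 2 stands at 19748 CPM for Fabp1.

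Fabp4 (chr3:10204088-10208576, minus strand), the form of adipocytes, macrophages and capillary endothelium, was at 18.5, 22.0, 31.9, 16.9 and 22.1 CPM in Apoe-/- and at 10.2, 13.1, 13.9 and 2.74 CPM in Mif-2-/- Apoe-/- libraries. It was the 1 gene of the 10 in which every Apoe-/- library was above every Mif-2-/- Apoe-/- library, as 2.24% of all genes tested were. The log2 fold change was 1.16 ± 0.60 (SE), with an edgeR adjusted p of 0.373, and the two-sided exact permutation p was 0.0159, the smallest that 126 arrangements allow. The library at 2.74 CPM rested on 12 reads. Marker sums of macrophages, endothelial cells and adipocytes overlapped between genotypes. The mean sum was higher in Apoe-/- for the Kupffer cell and macrophage list (1641 against 1502 per 1000000 counts). It was lower in Apoe-/- for the lipid-associated and monocyte-derived macrophage list (295 against 326), the endothelial list (208 against 249) and the adipocyte list (16.1 against 25.7). At an unadjusted edgeR p under 0.05, 2 of 10 Kupffer cell and macrophage genes were higher in Apoe-/- and 0 lower. In the lipid-associated and monocyte-derived macrophage list 1 of 7 was higher and 1 lower. In the endothelial list (9 tested) and the adipocyte list (4 tested) 0 were under 0.05. Of all genes tested, 6.52% were higher and 8.99% lower at this threshold, and 0 genes of these lists passed after adjustment. The part of these cells in the Fabp4 difference was not tested.

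Fabp5 (chr3:10012548-10016607, plus strand), the epidermal form, overlapped between the genotypes. It was at 7.96, 8.45, 10.3, 21.4 and 8.32 CPM in Apoe-/- and at 10.6, 22.1, 11.8 and 5.94 CPM in Mif-2-/- Apoe-/- libraries. Its log2 fold change was -0.15 ± 0.66 (SE), with an edgeR adjusted p of 0.940. Scaled to the hepatocyte marker sum it was -0.98, with an edgeR adjusted p of 0.439. Of its 100-base stretches of exon, 2.19% are shared with Gm14328 and Gm6166. Fabp4 reads per Fabp5 read were 2.33, 2.60, 3.09, 0.79 and 2.65 in Apoe-/- and 0.96, 0.59, 1.17 and 0.46 in Mif-2-/- Apoe-/- libraries, so 4 of 5 Apoe-/- libraries were above all 4 Mif-2-/- Apoe-/- libraries.

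Lipc (chr9:70798128-70952226, minus strand), the hepatic lipase, was at 416, 432, 234, 427 and 170 CPM in Apoe-/- and at 215, 247, 109 and 230 CPM in Mif-2-/- Apoe-/- libraries. Apoe-/- replicates 1, 2 and 4 were above all others, and replicates 3 and 5 lay among the Mif-2-/- Apoe-/- libraries. On the log2 scale the genotypes differed by 0.75 ± 0.36 (SE), with an edgeR adjusted p of 0.342 and a two-sided exact permutation p of 0.127. Scaled to the hepatocyte marker sum its log2 fold change was -0.18.

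Lpl (chr8:68880491-68907448, plus strand), lipoprotein lipase, was at 14.7, 16.5, 18.8, 10.5 and 21.5 CPM in Apoe-/- and at 12.8, 20.4, 9.83 and 3.20 CPM in Mif-2-/- Apoe-/- libraries. The groups overlapped broadly, and the lowest library rested on 14 reads. The log2 fold change was 0.51 ± 0.64 (SE), with an edgeR adjusted p of 0.754. Scaled to the hepatocyte marker sum, the log2 fold change was -0.06.

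The libraries with the lower share of hepatocyte marker reads had the lowest CPM of Fabp1, Fabp2 and Slc27a5, and the part of that share in their differences was not tested. These genes were also expressed per 1000000 hepatocyte marker reads. On this measure Fabp2 was at 729, 655, 781, 822 and 727 in Apoe-/- and at 467, 440, 303 and 494 in Mif-2-/- Apoe-/- libraries. Every Apoe-/- library, including replicate 5, was above every Mif-2-/- Apoe-/- library, as 0.801% of all genes tested were on this measure. The means were 743 ± 63.3 (SD, n = 5) and 426 ± 84.9 (SD, n = 4), 1.74-fold apart. In the edgeR fit scaled in this way the Fabp2 log2 fold change was 0.80 with an adjusted p of 0.292. Fabp1 and Slc27a5 overlapped between genotypes on this measure, with means 1.21-fold apart for both. Slc27a2 was at 3380 to 11111 in Apoe-/- and at 2868 to 24390 in Mif-2-/- Apoe-/- libraries.

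**Figure D4:**
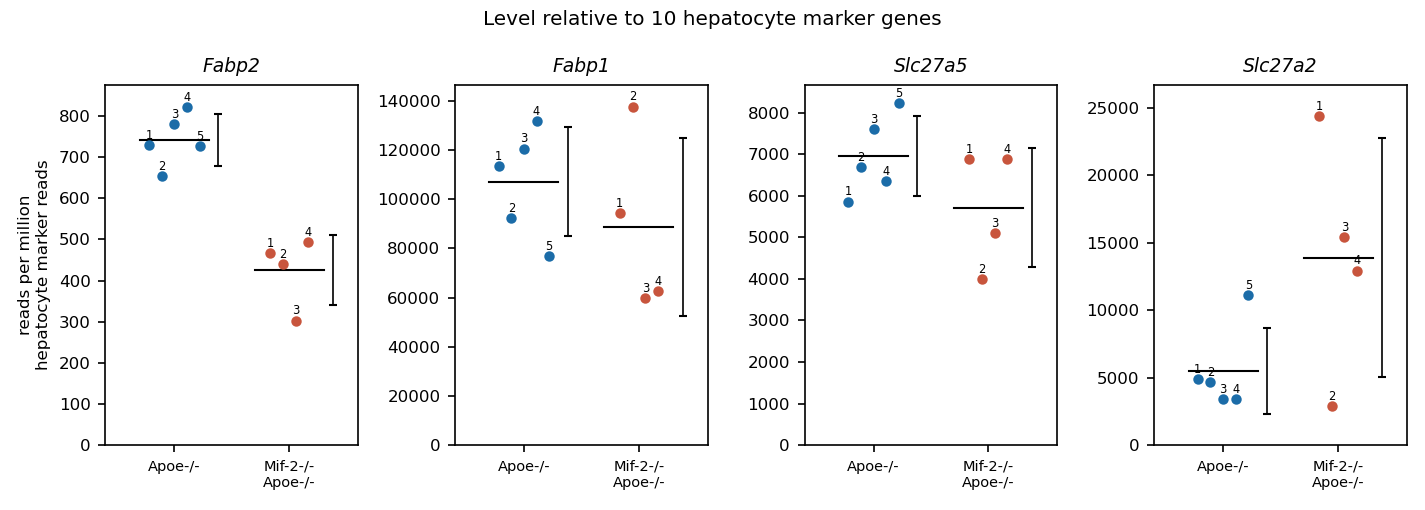
Reads of Fabp2, Fabp1, Slc27a5 and Slc27a2 per 1000000 reads of the 10 hepatocyte marker genes (y axes, linear) by genotype, 5 Apoe-/- and 4 Mif-2-/- Apoe-/- libraries. Points are libraries with their replicate number, lines are means and bars are SD. Fabp2 is the gene without overlap, with 655 the lowest Apoe-/- and 494 the highest Mif-2-/- Apoe-/- library.

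The genes most like 3 of the 10 in their pattern over the 9 libraries were described by Pearson's r of log2(CPM + 0.5), among genes of at least 10 CPM on average with a count in every library. For Fabp2 they were Ndufc1, Psmb1 and Eef1b2, with r of 0.99 for each. For Cd36 they were Ptdss1, Entpd5 and Agpat3 (0.97, 0.96 and 0.96), and for Lpl they were Dhrs11, Comp and Gatad1 (0.91, 0.88 and 0.88). The 9 points share genotype, library depth and hepatocyte share, so these values describe pattern only. Within genotype, Ndufc1 and Fabp2 still had r = 0.99.

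Of 11 further genes of transport and activation, 10 were tested, 4 with a higher and 6 with a lower level in Apoe-/-, and the median log2 fold change was -0.14. Mfsd2a, which encodes a transporter of lysophospholipids, averaged 157 ± 85.5 CPM (SD, n = 5) when Mif-2 was present and, without overlap of the groups, 518 ± 288 CPM (SD, n = 4) when it was deleted. In this direction 2.03% of all genes tested did not overlap. Its log2 fold change was -1.72 ± 0.46 (SE), the edgeR adjusted p was 0.141 and DESeq2 gave 0.0101, where 2.75% of genes were called lower. Got2, a mitochondrial aminotransferase also described as a membrane fatty acid binding protein, had a log2 fold change of 0.91 ± 0.32 and Slc27a1, the muscle and fat transport protein, one of -0.76 ± 0.55. Without adjustment, 1 gene was under 0.05 by edgeR in each direction, beside 6.52% of all genes tested in the higher and 8.99% in the lower one.

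Of the 8 further genes of intracellular binding, 6 were higher and 2 lower in Apoe-/-, and their median log2 fold change was 0.11. At an unadjusted edgeR p under 0.05, 2 of 8 were higher, beside 6.52% of all genes tested (43.5% had a log2 fold change above 0). Scp2, the sterol carrier protein of peroxisomes, was called higher in Apoe-/- by DESeq2, as were 2.52% of genes with an adjusted p-value. Its mean was 844 ± 232 CPM (SD, n = 5) when Mif-2 was present and 255 ± 201 CPM (SD, n = 4) when it was deleted. Its log2 fold change was 1.73 ± 0.47 (SE), with an adjusted p of 0.0198 by DESeq2 and 0.144 by edgeR. Dbi, the acyl-CoA binding protein, was at 1592 ± 724 and 629 ± 691 CPM, with an edgeR adjusted p of 0.298. Acbd4, another acyl-CoA binding domain gene, had a log2 fold change of -0.37 ± 0.37 (SE).

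Among 15 lipase cofactors, inhibitors and lipoprotein receptors, 13 were tested, 6 with a higher and 7 with a lower level in Apoe-/-, and the median log2 fold change was -0.05. Without adjustment edgeR gave 1 of 13 higher and 2 lower at p under 0.05, beside 6.52% and 8.99% of all genes tested. Apoc2, the activator of lipoprotein lipase, was called higher in Apoe-/- by DESeq2, as were 2.52% of genes with an adjusted p-value. Its adjusted p-values were 0.0409 by DESeq2 and 0.173 by edgeR. It averaged 2228 ± 765 CPM (SD, n = 5) when Mif-2 was present and 877 ± 493 CPM (SD, n = 4) when it was deleted. Gpihbp1, the capillary anchor of lipoprotein lipase, had a log2 fold change of 0.79 ± 0.57 (SE).

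The 11 transcription factors that are known to act on such genes gave no call by edgeR or DESeq2 after adjustment, and no edgeR p-value under 0.05 without it. Of these, 5 were higher and 6 lower in Apoe-/-, with a median log2 fold change of -0.39. Ppard, a fatty acid sensing receptor, averaged 21.7 ± 6.68 CPM (SD, n = 5) when Mif-2 was present and 9.43 ± 3.70 CPM (SD, n = 4) when it was deleted, with every Apoe-/- library higher (as in 2.24% of all genes tested), and its edgeR adjusted p was 0.340. Ppara, the main such receptor of hepatocytes, was at 134 ± 33.4 and 199 ± 112 CPM, and Foxa2, a hepatocyte factor, at 47.0 ± 23.2 and 71.0 ± 14.4 CPM.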

How the data were processed

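The authors trimmed reads (cutadapt, after FastQC), mapped them to mm10 by HISAT2 and counted those on exons. What they deposited are raw counts, as whole numbers for each Entrez gene. Reads were 2 × 100 bases from Smart-seq2 libraries. Symbols were matched to 25275 of 27179 identifiers, and 1 line that named no gene was left out.

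A gene entered the fit if 3 libraries of one genotype had at least 1 count each. The 10 genes of highest mean count per 1000000 counts of the whole library were excluded. This left 16860 for edgeR 4.0.16 under R 4.3.3 (TMM, quasi-likelihood test, Benjamini-Hochberg). DESeq2 1.42.0 was run on all genes with a count. Two-sided exact permutation tests of log2(CPM + 0.5) doubled the smaller tail (scipy, Python 3.11.15), with no adjustment for the number of genes. The edgeR fit and the permutation code were tried on simulated data, and DESeq2 was not. Gene positions are from GENCODE M21 on GRCm38. Other size factors, filters, a replicate block and each library left out were tried. The members and lists were chosen with earlier results of these data known. Named genes were the 10 members, Ddt, the DESeq2 or edgeR calls of each list with its 3 largest changes at 10 CPM or more, and the 3 genes most like Fabp2, Cd36 and Lpl. A gene that this rule names is not reported here.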

Additional observations from a re-analysis of the deposited data

Results flagged for a closer look

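In 20 groups of libraries (10 genes in 2 genotypes), 2 values stood far from the others of their group by Dixon's criterion, and chance gives about 1 in 20 such groups. Fabp1 was at 19748 CPM in Mif-2-/- Apoe-/- replicate 2, with a gap of 0.861 of the group's range to the next library. Fabp5 was at 21.4 CPM in Apoe-/- replicate 4, with a gap of 0.823 of the range.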

How the results depend on the processing

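Over 19 alternatives, 183 of 190 fold changes of the 10 genes kept their direction. The 7 that turned were those of Fabp5 (0.0091 with TMMwsp, 0.017 after subtracting the median of all genes, and within -0.45 to 0.35 over the fits that left out 1 library) and, scaled to hepatocyte markers, Lpl (-0.060) and Lipc (-0.18). Leaving out Apoe-/- replicate 1 gave Fabp5 0.039, leaving out Apoe-/- replicate 2 gave 0.024, and leaving out Mif-2-/- Apoe-/- replicate 2 gave 0.35. The cause was not tested. Genes past adjusted p 0.05 were 2 of 10 by DESeq2 and 0 to 1 when each library was left out, against 0. Those past unadjusted p 0.05 were 5 by TMMwsp and by DESeq2, 1 scaled to hepatocyte markers and 2 to 4 with a library left out, against 3. The median was 0.23 scaled to hepatocyte markers and 0.74 to 1.20 with a library left out. Genes in the whole table past adjusted p 0.05 numbered 22, against 739 by DESeq2, 560 with the block, 12 scaled to hepatocyte markers, 39 without the 2 least correlated libraries, and 9 to 262 with 1 library left out (262 with Mif-2-/- Apoe-/- replicate 2 omitted, 126 with Apoe-/- replicate 5 omitted).

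With the replicate number as a block, 3 of 10 genes (Slc27a5, Fabp1, Fabp2) were past adjusted p 0.05, as were 560 of all 16860 genes. Apoe-/- replicate 5 has no Mif-2-/- Apoe-/- library of its number, so it adds nothing to the genotype difference in that fit. It was the lowest Apoe-/- library for each of these 3 genes. Of the 10, 5 were past unadjusted p 0.05. The share of all genes past unadjusted p 0.05 was counted for the main fit alone. Same-numbered libraries had correlations of -0.026 to 0.138. Apoe-/- replicate 1 alone correlated best with the library of its own number, and every Mif-2-/- Apoe-/- library correlated best with another number. So few correlations cannot decide whether same-numbered libraries were paired, and the labels give only a number. Cd36, Fabp4, Lpl and Fabp5 rest on few reads, which limits their precision. The scalings to hepatocyte markers and without the least correlated libraries, and the subtraction of the median, were chosen after seeing the data. A pseudocount of 2 CPM in place of 0.5 moved no permutation p-value of the 10 genes across 0.05.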
